A study of Mus musculus with 6 samples.

Results

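The genes described here are the cardiac myosin heavy chains and the RNAs transcribed with them: Myh6, Myh7, Myh7b, the long noncoding RNA Mhrt and the microRNA precursor gene Mir208b. They were taken by symbol from the deposited table, which gave 5 rows of 32479 in all. The genes were picked because the balance of Myh7 and Myh6 differed between the groups in these same libraries, so their differences between groups are given as descriptions, with no test. The study collected 6 RNA sequencing libraries labelled as cardiac fibroblasts isolated from C57BL/6J mice. Of these, 3 came from control mice, whose handling is not described, and 3 from mice given carbon tetrachloride (CCl4), a liver toxin used to model cirrhosis, to ask how liver scarring acts on the heart. Each group had 3 mice, and the labels name no age, sex, dose, route, duration or genetic change for either. Myh7b is not part of the same locus as the others: it lies on chromosome 2, and the other 4 genes lie together on chromosome 14.

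Myosin heavy chains are the motor proteins of the thick filament, which pull on actin as muscle contracts. Myh6 encodes the fast alpha chain and Myh7 the slower beta chain, which is also the chain of slow skeletal muscle fibres. The adult mouse ventricle makes mainly the alpha chain, while the fetal ventricle, and the adult one under low thyroid hormone or mechanical overload, makes more of the beta chain. Mhrt is a nuclear RNA read from the strand opposite to Myh7. Introns of Myh6, Myh7 and Myh7b hold the microRNA genes Mir208a, Mir208b and Mir499, which are known to tune this balance in mice.

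The mature microRNAs are shown because these myosin genes carry a related microRNA each. In RefSeq (GRCm38.p6) they read, 5′ to 3′ with the seed (bases 2 to 8) in capitals:
miR-208a-3p: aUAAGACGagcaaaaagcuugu
miR-208b-3p: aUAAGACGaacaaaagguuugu
miR-499-5p: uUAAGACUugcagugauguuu
The first, from the Myh6 intron, lies at chr14:54949072-54949093 on the minus strand, the second, from the Myh7 intron, at chr14:54975710-54975731 on the minus strand, and the third, from the Myh7b intron, at chr2:155622893-155622913 on the plus strand. miR-208a-3p and miR-208b-3p share the seed and 19 of 22 bases. Counted from 1 at the 5′ end, with miR-208a-3p as the reference, they differ by G10A, A16G and C18U. The seed of miR-499-5p differs from theirs by G8U. The libraries were made from oligo(dT)-captured RNA, so the rows of these genes count fragments over the precursor hairpin and not the mature microRNA.

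On chromosome 14, Mhrt and Mir208b overlap the span of Myh7, while Myh6 overlaps none of the other 3. In the GENCODE M21 annotation of GRCm38, Myh6 occupies 54941921 to 54966927 and Myh7 occupies 54970684 to 54994626, both on the minus strand, with 3757 bp between the start of Myh6 and the end of Myh7. Mhrt, on the plus strand, occupies 54968678 to 54974349, starts 1751 bp from the start of Myh6, and runs into the last exons of Myh7. Of its 1214 exonic bases, 484 (39.9%) also lie in exons of Myh7. The Mir208b hairpin, 77 bp at 54975700 to 54975776, lies in intron 31 of the 41-exon Myh7 transcript and overlaps no annotated exon of Myh7 or Mhrt. Mhrt ends 1351 bp before it. Myh7b, on the plus strand of chromosome 2 at 155611212 to 155634307, holds Mir499 in intron 19.

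The promoters of Myh6, Myh7 and Mhrt are shown because these neighbouring starts had unlike levels in the groups. Each window runs from 250 bases before to 50 after the start annotated in RefSeq (GRCm38.p6), in the direction of transcription. Capitals mark CATTCC, the core of the MCAT element read by TEAD factors, on either strand, and TATAAA:
Myh6: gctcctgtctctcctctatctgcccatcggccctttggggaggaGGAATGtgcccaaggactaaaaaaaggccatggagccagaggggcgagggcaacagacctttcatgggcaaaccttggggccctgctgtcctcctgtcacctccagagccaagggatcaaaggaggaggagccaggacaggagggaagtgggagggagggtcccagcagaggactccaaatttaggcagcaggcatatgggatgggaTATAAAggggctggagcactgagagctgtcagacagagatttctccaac
Myh7: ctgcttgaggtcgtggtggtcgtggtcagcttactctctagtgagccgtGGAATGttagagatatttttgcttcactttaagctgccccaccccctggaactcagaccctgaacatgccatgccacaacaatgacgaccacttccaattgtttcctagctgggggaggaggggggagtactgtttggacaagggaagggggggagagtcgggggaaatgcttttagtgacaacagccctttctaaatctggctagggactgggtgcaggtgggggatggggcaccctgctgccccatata
Mhrt: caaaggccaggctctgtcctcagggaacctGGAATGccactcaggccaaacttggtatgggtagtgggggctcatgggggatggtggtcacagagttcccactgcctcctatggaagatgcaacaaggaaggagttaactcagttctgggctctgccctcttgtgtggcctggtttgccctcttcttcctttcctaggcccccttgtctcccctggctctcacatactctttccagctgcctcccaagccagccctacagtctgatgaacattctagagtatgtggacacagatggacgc
They lie at chr14:54966558-54966857 and chr14:54994577-54994876 on the minus strand and chr14:54968537-54968836 on the plus strand. CATTCC stood at -206 from the start of Myh6, at -220 from that of Mhrt and nearer to the start in Myh7, and 14.7% of 32851 promoter windows of this length hold it. TATAAA (13.6% of windows) was in that of Myh6, at position 2 counted from the annotated start. RefSeq lists another Myh7 start, whose window at chr14:54994500-54994799 does not hold these letters. AGATAA (11.2% of windows), the thyroid hormone receptor half-site AGGTCA (16.3%), the T-box core AGGTGT (13.7%) and the CArG box (1.6%), searched on both strands, were in none of these windows. The E-box CANNTG, which may overlap other motifs, was in each and in 72.3% of all windows. These are matches of letters, and binding was not measured. Apart from the CArG box and the E-box only exact letters were searched. Sites that vary from them, such as other forms of the thyroid hormone receptor half-site, would be missed.

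The label of cardiac fibroblasts covers only part of what the libraries held. Summed over the 30 genes of a heart muscle cell list without myosin heavy chains, FPKM (sequenced fragments per unit of transcript length and library size) came to 17850 to 21240 in control and 24160 to 25620 in CCl4 libraries. Much of the difference in this sum lay in 1 gene. Actc1, a cardiac actin of that list, was at 1735 ± 476.9 FPKM in control and 5840 ± 261.3 FPKM in CCl4 libraries (SD, n = 3 each). The 21 genes of a fibroblast list summed to 539.6 to 875.3 FPKM in control and 739.8 to 756.2 FPKM in CCl4 libraries. No gene of either list was at 0 in all libraries. In limma 10 of the 30 heart muscle genes rose and 3 fell in CCl4, with a median log2 fold change of 0.16, and 12 of the 21 fibroblast genes rose and 0 fell, with a median of 0.44. The calcium store protein Casq2 rose by 0.92 and the filament gene Des fell by 0.77 on the log2 scale. The collagens Col3a1, Col1a1 and Col1a2 and the proteoglycan Lum rose by 2.54, 1.88, 1.27 and 1.59. The other 9 fibroblast genes were not called, among them Pdgfra (-0.11), Tcf21 (0.17), Dcn (-0.29) and Gsn (-0.18). The part of heart muscle and fibroblast RNA in the values of the myosin genes was not tested. Without CCl4 replicate 3, or as TPM, 6 heart muscle genes rose. Fewer cells of a type and less RNA per cell cannot be told apart in such bulk libraries. Over the whole table, 3501 of 10995 tested rows (31.8%) differed between groups at a limma adjusted p under 0.05, and 2180 without CCl4 replicate 3. Of all tested rows 9.64% were higher and 22.2% lower in CCl4, and their median log2 fold change was -0.09 as deposited, -0.23 after rescaling to a common sum (TPM) and -0.02 with trimmed-mean (TMM) scaling. Higher rows made up 30.3% of the calls on the deposited values, 47.2% with TMM scaling and 12.8% as TPM. The 1060 higher calls became 631 without CCl4 replicate 3 and 655 without control replicate 2.

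Myh7 was the gene of this group that differed most. Its level was 350.2, 1491.5 and 1024 FPKM in control replicates 1, 2 and 3, and 81.6, 69.9 and 62.1 FPKM in the CCl4 replicates. All control libraries lay above all CCl4 libraries, and the lowest control value was that of replicate 1. The means were 955 ± 574 and 71.2 ± 9.84 FPKM (SD, n = 3 each), a ratio of 13.4 to 1, with a log2 fold change on the log2(FPKM + 1) scale of -3.50 ± 0.45 (SE). Without control replicate 1 the log2 fold change was -4.11.

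Myh6 lay the other way in most libraries. Its level was 1994, 914.3 and 1001 FPKM in control replicates 1, 2 and 3, and 2390.45, 1940.17 and 2013 FPKM in the CCl4 replicates. Control replicate 1 fell inside the range of the CCl4 libraries, so the groups overlapped. The means were 1303 ± 600.2 and 2115 ± 242 FPKM (SD, n = 3 each), with a log2 fold change of 0.78 ± 0.27 (SE). The control library with the least Myh7 was the one with the most Myh6, and the library with the most Myh7 had the least Myh6.

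**Figure D1:**
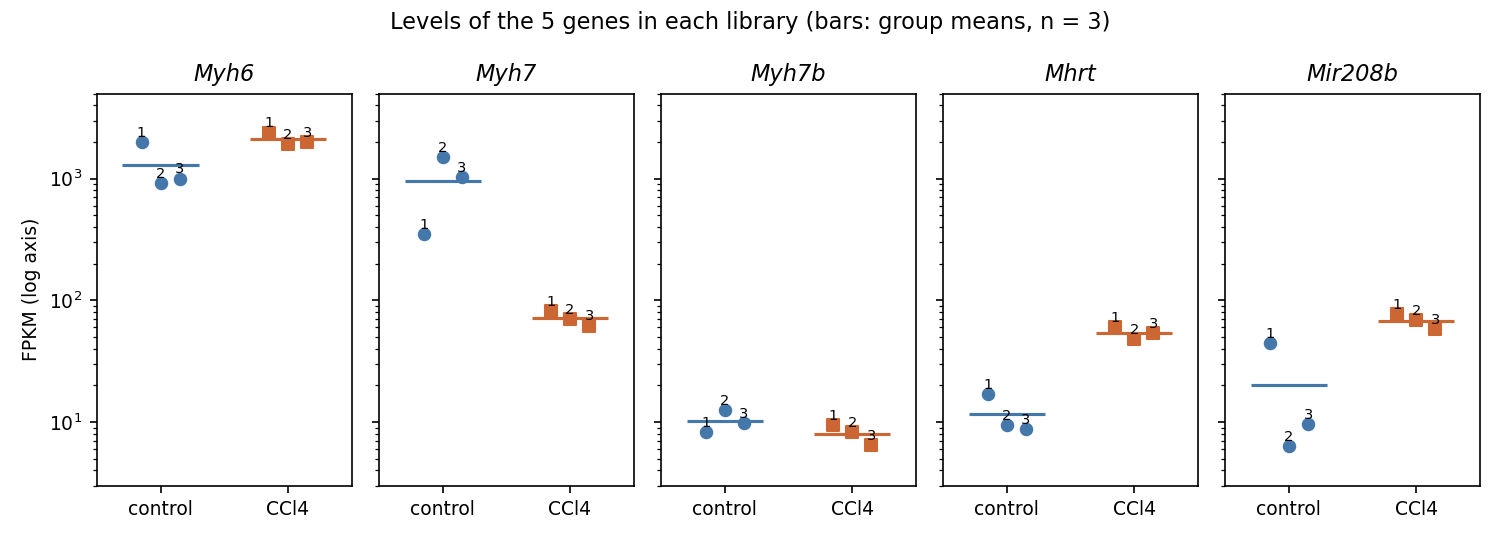
FPKM of Myh6, Myh7, Myh7b, Mhrt and Mir208b on a shared log axis, with 1 point per library (circles control, squares CCl4, numbers giving the replicate) and bars at the group means. Myh7 is lower and Mhrt and Mir208b are higher in every CCl4 library than in any control library, and control replicate 1 lies nearest to the CCl4 group for each of these.

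In FPKM as deposited, the sum of the 2 chains was alike in the groups, while its make-up was not. The sum, unlike the make-up, depends on how libraries are scaled. FPKM over all rows totalled 519609 to 542738 in control and 588660 to 602763 in CCl4 libraries. Myh6 plus Myh7 came to 2345, 2406 and 2025 FPKM in control libraries and 2472, 2010 and 2075 FPKM in CCl4 libraries, with means of 2258 ± 204 and 2186 ± 250.1 FPKM (SD, n = 3 each). Of this sum Myh7 made up 14.9%, 62.0% and 50.6% in control replicates 1, 2 and 3, and 3.30%, 3.48% and 2.99% in the CCl4 replicates. Myh7 thus stood above Myh6 in control replicates 2 and 3 and far below it in the other 4 libraries. The share of the beta chain ranged widely among control mice and within 1 percentage point among CCl4 mice.

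The Myh7 to Myh6 ratio, which no scaling of a library can change, was 0.176, 1.63 and 1.02 in control replicates 1, 2 and 3 and 0.0341, 0.0360 and 0.0308 in the CCl4 replicates. On the log2 scale the means were -0.59 ± 1.70 and -4.90 ± 0.11 (SD, n = 3 each), a difference of -4.30, or 19.8-fold. Control replicate 1 set the lower end of the control range. The difference was -5.26 without it and -3.66 without control replicate 2. Relative to the mean log2 FPKM of the 30 heart muscle genes in the same library, Myh7 was at 2.05 ± 1.17 in control and -1.67 ± 0.23 in CCl4 libraries, and Myh6 at 2.64 ± 0.53 and 3.22 ± 0.18 (SD, n = 3 each). Against these transcripts the Myh7 difference was -3.73 and that of Myh6 0.58.

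The 2 chains are close in sequence, which limits how well fragments can be told apart. Of all 31-base words of the main Myh6 transcript 32.3% also occur in that of Myh7, and of all 150-base words 5.5% do. Fragments from such stretches could have been given to either row, and how they were shared out was not tested. Myh7b shared 0.1% of its 31-base words with Myh7.

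**Figure D2:**
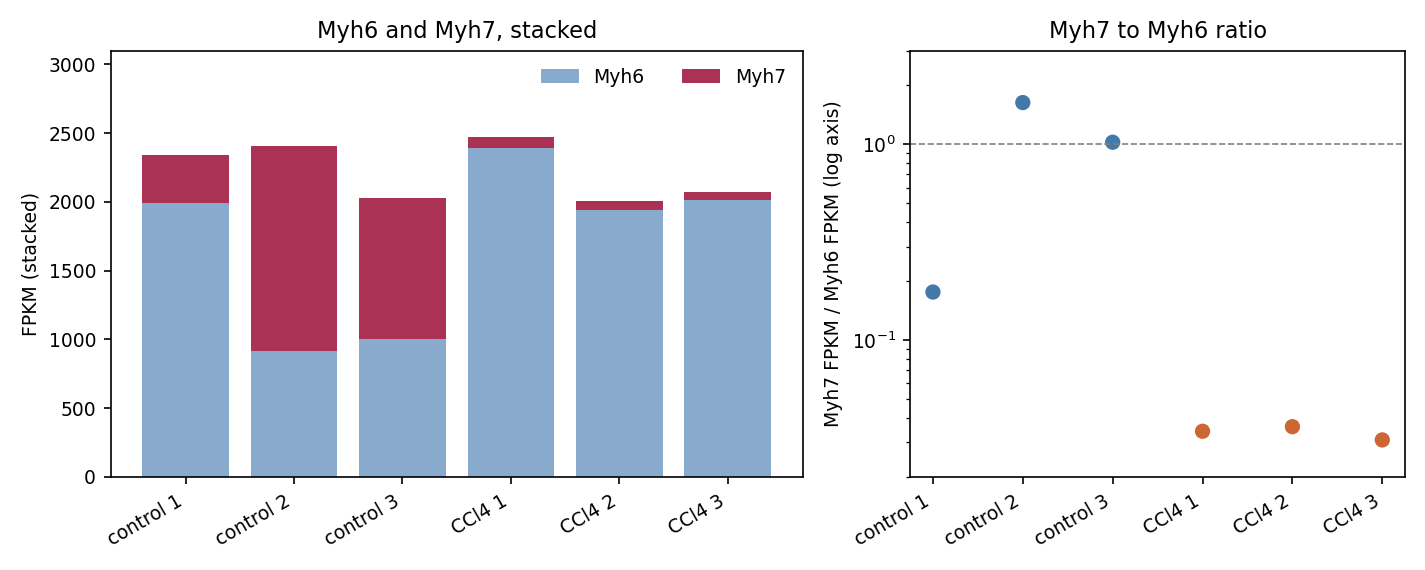
Left, stacked bars of Myh6 and Myh7 FPKM in each library, starting at 0. Right, the Myh7 to Myh6 ratio of each library on a log axis, with a dashed line at a ratio of 1. The stacked sums lie between 2010 and 2472 FPKM, while the ratio runs from 0.0308 to 0.0360 in CCl4 and from 0.176 to 1.63 in control libraries.

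Mhrt, the antisense RNA known to bind the chromatin remodeller BRG1 in heart muscle, was higher in CCl4. Its level was 16.8, 9.48 and 8.74 FPKM in control replicates 1, 2 and 3, and 60.3, 47.8 and 53.8 FPKM in the CCl4 replicates. The groups did not overlap, and control replicate 1 was the highest of its group. The means were 11.7 ± 4.48 and 53.9 ± 6.30 FPKM (SD, n = 3 each), with a log2 fold change of 2.16 ± 0.21 (SE). Groups did not overlap for 3 of the 5 genes, Myh7, Mhrt and Mir208b, against 48.7% of all tested rows (14.7% higher and 34% lower in CCl4). All 5 genes passed the minimum level, and since they were chosen on this contrast nothing is read from that count.

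The ratio of Mhrt to Myh6 varied less within groups than its ratio to the overlapping Myh7. Mhrt came to 0.844%, 1.04% and 0.873% of the Myh6 level in control libraries and 2.52%, 2.46% and 2.67% in CCl4 libraries, so it was 2.78-fold higher relative to Myh6 with little spread inside either group. Relative to Myh7 it came to 4.81%, 0.636% and 0.853% in control and 73.9%, 68.3% and 86.6% in CCl4 libraries. Both sets of shares separate the groups. That relative to Myh7 spread far more among control libraries.

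Mir208b differed from its host gene. Its row was at 44.4, 6.34 and 9.62 FPKM in control replicates 1, 2 and 3, and 77.7, 69.3 and 57.6 FPKM in the CCl4 replicates, with means of 20.1 ± 21.1 and 68.2 ± 10.1 (SD, n = 3 each) and a log2 fold change of 2.17 ± 0.57 (SE). The groups did not overlap, and the control library with the least Myh7 had the most Mir208b. As a share of the Myh7 level it was 12.7%, 0.425% and 0.939% in control and 95.2%, 99.1% and 92.8% in CCl4 libraries. Without control replicate 1 the log2 fold change of Mir208b was 2.96. A hairpin of 77 bp is shorter than the reads, so its FPKM is a rough measure of fragments over that stretch of intron, and which strand or precursor they came from was not tested.

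Of 5 other rows inside the locus, all but Mir208a looked up after values were seen, 4 had a higher mean in CCl4, as Mhrt had. Gm31251, a plus-strand RNA with 41.9% of its exonic bases in Myh7 exons, was at 9.35, 4.11 and 3.59 FPKM in the control group and 24.65, 22.4 and 15.9 FPKM in CCl4 libraries. Its ratio to Mhrt was 0.467 ± 0.0777 and 0.391 ± 0.0881 (SD, n = 3 each), a difference within the spread. Mir208a, in intron 29 of Myh6, was at 1.29 ± 0.957 and 5.93 ± 1.55 FPKM, and came to 0.0930% ± 0.0399 of Myh6 in control and 0.283% ± 0.0884 in CCl4 libraries. Gm17428, in a Myh7 intron, was at 1.48 ± 0.77 and 4.41 ± 1.77 FPKM. Gm49130, antisense to the 3′ end of Myh6, was at 2.95 ± 1.87 and 8.63 ± 2.57 FPKM. Groups did not overlap for these 4, against 48.7% of all tested rows (14.7% higher and 34% lower in CCl4). As most were looked up after values were seen, nothing is read from that count. Gm29015, an antisense row inside Mhrt with 68.6% of its exonic bases in Myh7 exons, was at 3.38 ± 2.15 and 2.13 ± 1.12 FPKM (SD, n = 3 each for all these rows), with overlapping groups.

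Rows of these classes elsewhere in the genome were counted for comparison. Of 84 other tested antisense genes 12 rose and 23 fell in limma, with a median log2 fold change of -0.25, and of 31 other tested microRNA genes 1 rose and 3 fell, with a median of -0.10, beside 9.64% higher and 22.2% lower over all tested rows. The kit used marks strand, but the strand setting of the quantification is not stated, so fragments of Myh7 and of its antisense partners may not be fully separated.

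**Figure D3:**
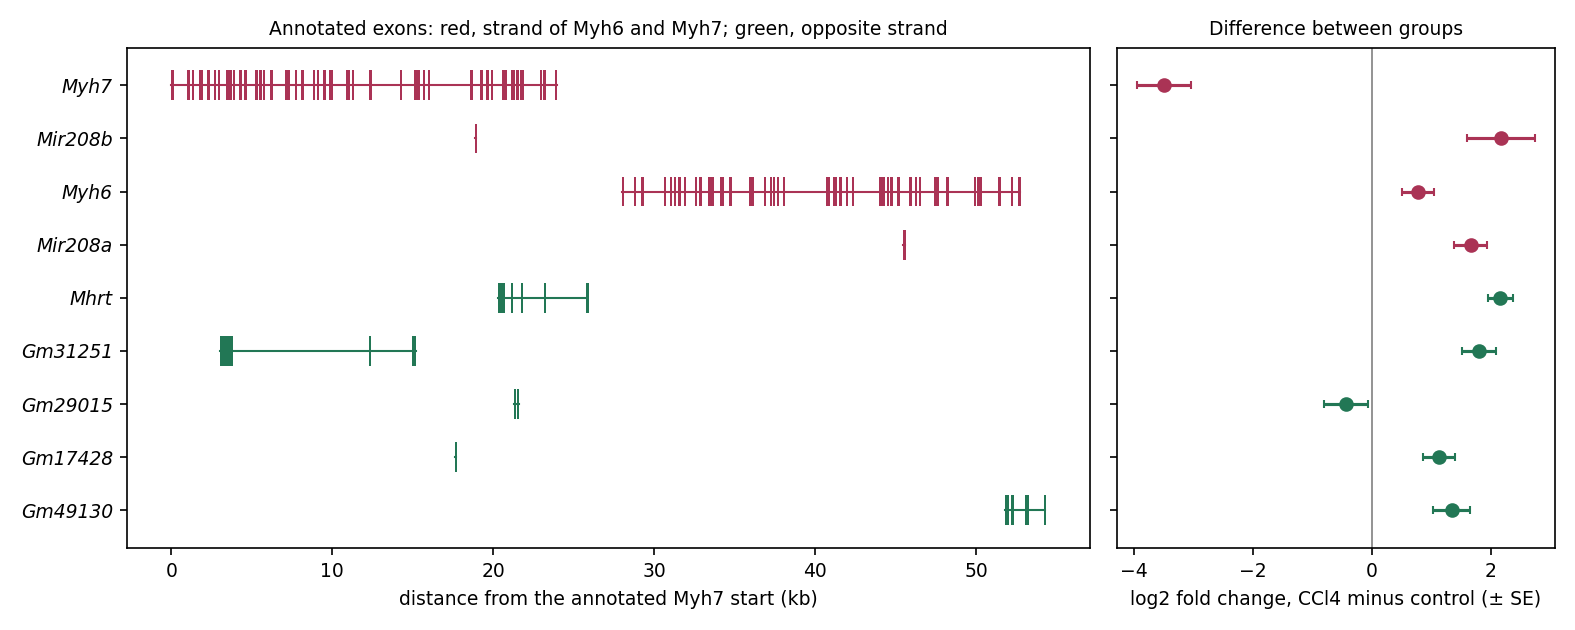
Left, annotated exons (blocks) of the genes in the locus by distance in kb from the annotated start of Myh7, red on the strand of Myh6 and Myh7 and green on the opposite strand. Right, log2 fold change of each row, CCl4 minus control, with its SE (n = 3 each). Myh7 at -3.50 and Gm29015 at -0.43 lie below 0, while Mir208b at 2.17, Mhrt at 2.16, Gm31251 at 1.80 and the other rows lie above.

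Myh7b, an ancient sarcomeric myosin whose heart transcript is known to yield little protein, was far less abundant. It was at 8.30, 12.6 and 9.81 FPKM in the control group and 9.40, 8.22 and 6.47 FPKM in CCl4 libraries, with means of 10.2 ± 2.16 and 8.03 ± 1.47 (SD, n = 3 each). The groups overlapped, and the log2 fold change of -0.31 ± 0.16 (SE) ranged from -0.44 to -0.16 when 1 library was left out. Its intronic Mir499 was listed at 0 in 5 libraries and at 0.88 FPKM in CCl4 replicate 1. The order of levels in control libraries was Myh6, Myh7, Mir208b, Mhrt and Myh7b, where Myh6 and Myh7, and then the last 3, did not differ beyond their spread. In CCl4 libraries it was Myh6, Myh7, Mir208b, Mhrt and Myh7b, with overlapping values of Myh7 and Mir208b and of Mir208b and Mhrt. Myh6 ranked 10 among rows outside the mitochondrial genome in each CCl4 library and 10, 19 and 18 in the control libraries, while Myh7 ranked 61, 12 and 17 in control and 291, 346 and 402 in CCl4.

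Control libraries differed widely in Mir208b and Myh7. Between the highest and lowest control library Mir208b differed 7.00-fold, Myh7 4.26-fold, Myh6 2.18-fold and Mhrt 1.93-fold, against 1.23-fold to 1.35-fold for these 4 in the CCl4 group. The SD of log2(FPKM + 1) among control libraries was 1.39 for Mir208b, 1.08 for Myh7, 0.62 for Myh6, 0.48 for Mhrt and 0.27 for Myh7b, which placed them at percentiles 99.84, 99.75, 98.94, 98.0 and 91.99 of tested rows. In each of Myh7, Myh6, Mhrt and Mir208b, control replicate 1 lay on the side of the CCl4 group.

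Other thick filament genes showed no common direction. Of 28 tested, 5 rose and 9 fell (9.64% and 22.2% over all tested rows), with a median log2 fold change of -0.03. Myom2, a protein of the M-band that ties thick filaments together, fell from 299 ± 30.4 to 72.9 ± 1.56 FPKM (SD, n = 3 each; limma adjusted p = 3e-05), and the cardiac myosin light chain kinase Mylk3 from 165 ± 8.90 to 83.7 ± 5.08 FPKM (limma adjusted p = 0.000228). Trim54, a ring-finger protein of the sarcomere, fell by 0.96 on the log2 scale. The myosin chaperone partner Smyd1 rose from 63.5 ± 9.44 to 111 ± 5.70 FPKM (limma adjusted p = 0.0016). The non-muscle chain Myh14 fell from 19.6 ± 1.20 to 7.23 ± 0.549 FPKM (limma adjusted p = 8.95e-05) and the non-muscle chain Myh9 rose from 5.48 ± 0.264 to 7.32 ± 0.632 FPKM (limma adjusted p = 0.013). Myh10, non-muscle, and Myh11, of smooth muscle, had log2 fold changes of 0.02 and 0.06 (limma adjusted p = 0.881 and 0.89). As TPM 3 genes of this list rose.

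Skeletal muscle also makes the beta chain, in its slow fibres, and genes of its list had unlike levels. The chains Myh1, Myh2, Myh3 and Myh8 were listed at 0 to 0.02 FPKM in every library, and the fast-fibre genes Mylpf, Tnni2 and Tnnt3 averaged 0.31, 0.347 and 0.117 FPKM in control libraries. The slow-fibre troponin Tnnt1 was at 2.34 ± 0.266 and 1.70 ± 0.128 FPKM in control and CCl4 libraries (SD, n = 3 each). The fast-fibre binding protein Mybpc2 was at 3.96 ± 0.765 and 1.55 ± 0.186 FPKM. The calcium channel Cacna1s was at 2.30 ± 0.501 and 1.59 ± 0.139 FPKM but was not called (limma adjusted p = 0.0612). All 3 had a lower mean in CCl4, as Myh7 had. Casq1, a calcium store protein of the same list, had a higher mean in CCl4. It was at 0.943 ± 0.136 and 1.37 ± 0.228 FPKM (limma adjusted p = 0.0655). The whole skeletal list of 31 genes in the table summed to 898 to 1206 FPKM in the control group and 1543 to 1710.0 FPKM in CCl4 libraries, most of it from Eno3, Ckm and Pygm, which heart muscle also makes, and 4 were at 0 in all. Of 10 tested genes of the list 3 rose and 2 fell (9.64% and 22.2% over all tested rows), with a median of 0.08. The risers were Acta1, Eno3 and Myl1, of which Acta1, the skeletal actin also made by the fetal heart, went from 28.3 ± 9.97 to 136 ± 31.7 FPKM (SD, n = 3 each; limma adjusted p = 0.00069). Its direction was opposite to that of Myh7. Of the 2 that fell, Mybpc2 and Tnnt1, 1 passed without control replicate 2 or any 1 CCl4 replicate. The part of skeletal muscle RNA in the Myh7 values was not tested.

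Of 46 tested genes known or proposed to set the balance of the chains 3 rose and 15 fell, with a median log2 fold change of -0.19. Over all tested rows 9.64% were higher and 22.2% lower, with a median of -0.09, so falls outnumbered rises in the whole table too. The thyroid hormone receptor Thra was at 14.6 ± 1.38 and 13.3 ± 0.425 FPKM (limma adjusted p = 0.315), and Thrb at 2.53 ± 0.151 and 1.94 ± 0.225 FPKM (limma adjusted p = 0.0456; SD, n = 3 each). The largest fall of the 4 with the smallest p was that of Gata6, a cardiac transcription factor, at -0.69 ± 0.10 (SE; limma adjusted p = 0.00188). The class II deacetylase Hdac5, the nuclear receptor corepressor Ncor1 and the purine-rich element binding protein Pura fell by 0.45, 0.44 and 0.56. The deiodinases Dio1, Dio2 and Dio3 had at most 0.46 FPKM in any library. These counts hung on single libraries: 3 rises became 1 without CCl4 replicate 1 or 2 and 0 without CCl4 replicate 3 or control replicate 2, and 15 falls became 9, 8 and 9 without CCl4 replicate 1, CCl4 replicate 3 or control replicate 3. As TPM 0 rose and 27 fell.

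Of 27 tested genes of the fetal and stress program, which Myh7 is commonly listed with, 8 rose and 5 fell, with a median of 0.02. Over all tested rows 9.64% rose and 22.2% fell. Actc1, the cardiac actin, rose by 1.78 ± 0.17 (SE; limma adjusted p = 0.00037) and Fhl1, a stretch-linked LIM protein, by 1.47 ± 0.13 (limma adjusted p = 0.000236), while Ccn2, a matrix-associated growth factor, fell by 2.52 ± 0.18 (limma adjusted p = 0.000121) and the filament gene Des by 0.77. The natriuretic peptide gene Nppb was at 176 ± 68.3 and 110 ± 11.4 FPKM (SD, n = 3 each; limma adjusted p = 0.129). Rises numbered 5 without CCl4 replicate 2 or 3, and falls 3 without control replicate 2 or any 1 CCl4 replicate and with TMM scaling.

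Atrial markers differed between single libraries. The 38 genes of the atrial and conduction list summed to 391 to 1782 FPKM in the control group and 339 to 480.7 FPKM in CCl4 libraries, and 1 was at 0 in all. Myl7, the atrial light chain, was at 8.56, 2.69 and 57.2 FPKM in control replicates 1, 2 and 3 and 1.68, 4 and 39.2 FPKM in the CCl4 replicates, so replicate 3 of each group stood out. Control replicate 2, with the most Myh7, had the least Myl7 of its group. The atrial natriuretic peptide gene Nppa was at 220.8, 272 and 1501 FPKM in control replicates 1, 2 and 3 and 269, 153 and 227 FPKM in the CCl4 replicates, so that library had the second highest Nppa of all 6. The part of atrial RNA in the Myh7 values was not tested. Of 26 tested genes of the list 6 rose and 1 fell (9.64% and 22.2% over all tested rows), with a median of -0.06. The fall was Kcna5, a potassium channel (-0.63 ± 0.12, SE; limma adjusted p = 0.00602), and the matrix gene Smoc2 and the gap junction gene Gja1 rose by 0.78 and 0.73. Without control replicate 2 there were 2 falls, and as TPM 3 rises and 3 falls.

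Few genes beside the locus could be tested. Of the 5 protein-coding genes nearest on each side, only Ngdn, Thtpa, Pabpn1 and Ap1g2 reached the minimum level. As deposited, none of the 4 was called by limma (0 at an unadjusted p under 0.05), beside 31.8% of all tested rows. With 4 genes, nothing is read from that count. Ngdn, 20828 bp from the start of Myh7, was at 10.2 ± 0.444 and 8.87 ± 1.21 FPKM (SD, n = 3 each; limma adjusted p = 0.169), but was called as TPM and without CCl4 replicate 2. Cmtm5, 2647 bp beyond the end of Myh6, was at 0.127 ± 0.125 and 0.120 ± 0.0656 FPKM, and Il25, Efs, Slc22a17, Zfhx2 and Jph4 averaged under 1 FPKM in both groups.

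Genes with levels most like Myh7 over the 6 libraries were found by the root mean square difference of log2(FPKM + 1) values, each centred on the gene's mean. Among the nearest were the stress factor Atf3 (0.53), the thioesterase Acot1 (0.54), the nuclear receptor Nr4a1 (0.61), the mitochondrial transhydrogenase Nnt (0.67) and the antiproliferative gene Btg2 (0.67). They shared low values in all CCl4 libraries, which the measure favours, so nothing is read from that. None of these had its lowest to highest control values as far apart as Myh7. Atf3, for example, was at 11.5, 20.7 and 42.6 FPKM in the control group and 0.72, 0.76 and 1.17 FPKM in CCl4 libraries. Atf3, Acot1, Nr4a1 and Btg2 were highest in control replicate 3, while Nnt, like Myh7, was highest in control replicate 2. Nnt stands on 2 rows that overlap on 1 strand. Only 1 of them had this pattern, at 73.4 ± 15.4 and 2.51 ± 0.317 FPKM, while the other was at 115 ± 40.6 and 100.5 ± 8.94 FPKM (SD, n = 3 each). C57BL/6J mice are known to carry a deletion within Nnt, and whether the groups differ in substrain was not tested.

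Of the genes named by the same rule for Myh6, leaving out predicted genes, the 4 nearest were Ckmt2, the mitochondrial creatine kinase of muscle (0.16), Wfdc1 (0.16), Chac2 (0.18) and Oxct1, which lets cells use ketone bodies (0.18). Ckmt2 was at 790.3, 503 and 543.6 FPKM in control replicates 1, 2 and 3 and 1094, 953.9 and 981.6 FPKM in the CCl4 replicates. Like Myh6 it was highest in replicate 1 of each group. From Myh7, by this measure, Myh7b lay at 1.67 (rank 1343 of the 10995 tested rows, with rank 1 the nearest), Myh6 at 2.36 (rank 10884), Mhrt at 2.97 (rank 10989) and Mir208b at 3.18 (rank 10993).

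**Figure D4:**
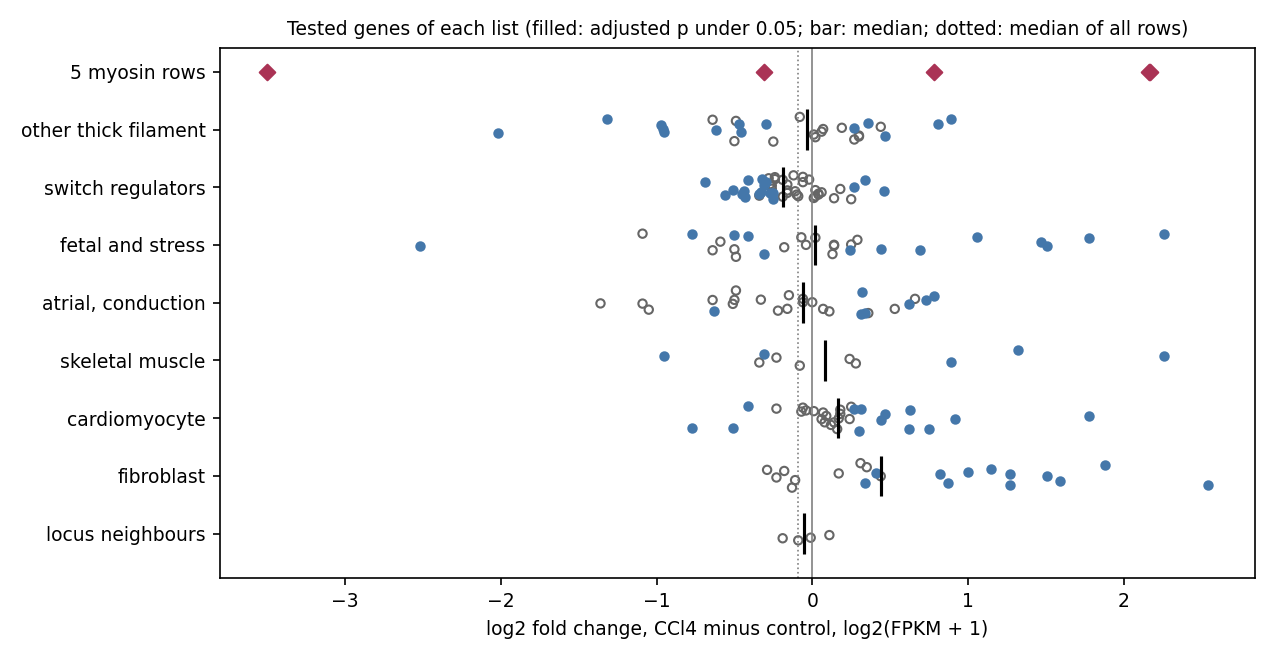
Log2 fold change, CCl4 minus control, of the 5 myosin rows (diamonds, not tested) and of the tested genes of each list (circles, filled at a limma adjusted p under 0.05), with a bar at each list's median and a dotted line at the median of all rows, -0.09. Mhrt and Mir208b lie on the same spot at 2.16 and 2.17, and Myh7 at -3.50 lies below every listed gene.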

How the data were processed

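The authors deposited 1 table of FPKM values for 6 libraries (3 control, 3 CCl4), made, per the submitters' processing notes, with StringTie 2.1.6 and the GRCm38 build. The aligner, annotation release and strand setting are not stated there, and the depth per library is unknown because no counts were used. FPKM sums ran from 519609 to 602763 per library and were used as deposited.

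Values were taken as log2(FPKM + 1). Rows with a mean of at least 1 FPKM went into limma 3.58.1 under R 4.3.3 (mean-variance trend, no covariate, two-sided, Benjamini-Hochberg over 10995 rows), after a check on simulated data. P-values weigh the difference between group means against the spread between these libraries within groups. Alternatives were a pseudocount of 0.1, no filter or a mean of at least 5 FPKM, TPM and unweighted TMM scaling, no trend, a replicate block and leaving out each library.

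The 5 genes and all lists were chosen with earlier results of these data known. From each list the 4 genes with the smallest p were named, plus other myosin heavy chains, thyroid hormone receptors, 5 neighbours on each side, and the 6 and 4 genes nearest to Myh7 and Myh6. Further genes named for a count of 5 or fewer, and Smyd1, Nppa, Nppb, Myl7, Cacna1s, Ckm, Pygm, Mylpf, Tnni2, Tnnt3, the deiodinases and the extra rows of the locus, were chosen after their values were seen. So were Casq1, Xirp1, Csrp3 and Hspb7, and the fibroblast genes Pdgfra, Tcf21, Dcn and Gsn. Listed symbols without a matching row were Myh4, Myl10, Myf5, Myog and Ctgf, an alias of Ccn2. Positions are from GENCODE M21 by symbol (96.82% of rows matched). Some genes picked by the naming rule are not reported here.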

Additional observations from a re-analysis of the deposited data

How the results depend on the processing

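Only scaling, the pseudocount and leaving out a library could change the log2 fold changes of the 5 genes. Only leaving out a library could change the Myh7 to Myh6 difference, which was taken from deposited FPKM throughout. Under the alternatives that could change them, these values kept their direction and moved by less than the SD between replicates pooled over both groups. That SD is mostly the spread of the control libraries: without control replicate 1, Myh7, Myh6, Mhrt, Mir208b and the log2 ratio moved by more than the SD of the CCl4 libraries alone (0.20, 0.16, 0.17, 0.21 and 0.11). With 1 library left out they ranged from -4.11 to -3.06 for Myh7, 0.58 to 1.14 for Myh6, -0.44 to -0.16 for Myh7b, 2.00 to 2.44 for Mhrt, 1.65 to 2.96 for Mir208b and -5.26 to -3.66 for the log2 ratio. Counts of calls moved more. Over all rows, 2164 were called at a mean of at least 5 FPKM (655 higher, 1509 lower), where fewer rows were tested, against 3501 (1060 and 2441). As TPM it was 617 higher and 4221 lower, and with 1 library left out 2180 to 3260 (631 to 1152 higher, 1549 to 2108 lower). Of calls, 30.3% were higher as deposited, 12.8% as TPM and 47.2% with TMM. The cause of these moves was not tested.

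As TPM the higher and lower calls were 3 and 3 for atrial and conduction genes and 0 and 27 for switch regulators, with 6 higher for cardiomyocyte markers, 3 higher for thick filament genes and 1 lower for locus neighbours. With no filter 5 cardiomyocyte markers were higher, 3 fetal and stress genes lower, 1 skeletal muscle gene lower, and 0 regulators higher and 7 lower. At a mean of at least 5 FPKM it was 0 skeletal muscle genes lower, and 1 regulator higher and 7 lower. With TMM it was 3 fetal and stress genes and 1 skeletal muscle gene lower. With 1 library left out, higher calls ranged from 4 to 8 for atrial and conduction genes, 6 to 12 for cardiomyocyte markers, 5 to 7 for fetal and stress genes and 0 to 3 for regulators. Lower calls ranged from 1 to 2 for atrial and conduction genes, 3 to 6 for fetal and stress genes, 0 to 1 for neighbours, 1 to 2 for skeletal muscle genes and 8 to 11 for regulators.

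No sign of pairing by replicate number was seen: deviations of same-numbered libraries from their group means correlated across genes at -0.064, 0.046 and -0.038. Those of other-numbered libraries ran from -0.097 to 0.123. With 3 libraries per group this cannot settle whether samples were paired. With the replicate block 3 atrial and conduction genes and 1 skeletal muscle gene were lower, and 1 regulator was higher and 9 lower.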

Other observations

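Among control libraries, the load-responsive heart muscle genes Nppb and Ankrd1 had the same order as Myh7 (replicate 2 highest, replicate 1 lowest), looked up after the values were seen. Xirp1, Csrp3, Des and Hspb7 of the fetal and stress list had this order too. Others of the list did not. Nppa was at 220.8, 272 and 1501 FPKM in control replicates 1, 2 and 3, and Acta1 at 19.1, 26.9 and 38.9 FPKM. These were highest in replicate 3. Nppb was at 100.04, 232 and 196 FPKM in control replicates 1, 2 and 3, and Ankrd1 at 209.8, 696 and 652.5 FPKM. In the CCl4 replicates Nppb was at 122.8, 102 and 105 FPKM and Ankrd1 at 542, 528 and 435 FPKM. With Myh7 at 81.6, 69.9 and 62.1 FPKM there, Nppb lay near the level of control replicate 1 and Ankrd1 inside the control range. The calcium pump gene Atp2a2 was at 1712, 1025 and 1043 FPKM in control replicates 1, 2 and 3, and like Myh6 was highest in replicate 1. In the CCl4 replicates it was at 1059, 1209 and 1232 FPKM, where Myh6 was again highest in replicate 1 and Atp2a2 was lowest there. Its log2 fold change was -0.07, against 0.78 for Myh6.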
